A study of Mus musculus with 6 samples.

Results

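The integrin and focal adhesion core genes are the genes of the integrin α and β chains and of the proteins that join them to actin inside the cell. Their members were set by a rule on gene symbols, with earlier results of these data known. It took symbols made only of Itga and a chain name of numbers or letters, or of Itgb and a single digit, except Itgam. It also took the talin genes Tln1 and Tln2, the kindlin genes Fermt1, Fermt2 and Fermt3, and Vcl, Ilk, Pxn, Parva, Parvb, Parvg, Ptk2 and Zyx. The rule found 38 of the 23473 RefSeq genes in the table, which were 17 α chains, 8 β chains and 13 cytoplasmic proteins. Of these, 32 had a mean of at least 1 RPKM (reads scaled to transcript length and library size) over the 6 libraries and were among the 12320 genes tested.

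Integrins are pairs of 1 α and 1 β chain that span the cell membrane and bind matrix proteins or receptors on other cells. Talins and kindlins bind the tail of the β chain and switch the pair to its binding form, and vinculin, paxillin, zyxin, focal adhesion kinase and the complex of integrin linked kinase with the parvins build the plaque that holds actin. Endothelial cells use β1 pairs on collagen, laminin and fibronectin and the αvβ3 and αvβ5 pairs on proteins with the amino acid motif RGD, whereas β2 and β7 pairs are known from leukocytes and αIIbβ3 from platelets.

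The libraries were made from tumor endothelial cells (TECs) of Lewis lung carcinoma (LLC), a mouse tumor line grown under the skin of C57BL/6 mice aged 8 weeks. The 3 NICeCA mice carried a tamoxifen-inducible Cre under the Cdh5 promoter and a Rosa26 allele from which Cre releases the Notch1 intracellular domain, so that Notch signaling is switched on in cells that use Cdh5, and the genotype of the 3 Ctrl mice is given as wild type. The labels have tumors taken on different days and the methods name a single day, and no day is given for a library, so the day cannot be set against the groups. The sources do not say whether the Ctrl mice carried Cre or received tamoxifen. Cells were captured with CD31 beads, and CD31 is also carried by leukocytes and platelets. The libraries held 27793301 to 30769916 reads on RefSeq genes.

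The cell type markers showed a mixed population. The summed level of 12 endothelial markers was 202 to 556 RPKM in Ctrl and 462 to 608 RPKM in NICeCA. Taken singly, all 12 leaned upward in NICeCA, by 0.23 to 1.25 on the log2 scale, with a median of 0.66. Of these, 0 had a limma adjusted p under 0.05, and only Emcn separated the groups. The part of this shift in the rises of single members below was not tested. The summed level of 9 macrophage markers was 6196 to 8874 RPKM in Ctrl and 4953 to 8356 RPKM in NICeCA. The groups did not overlap for the summed neutrophil markers, at 117 to 268 RPKM in Ctrl and 591 to 1637 RPKM in NICeCA, nor for the summed fibroblast markers, at 332 to 553 RPKM in Ctrl and 151 to 308.0 RPKM in NICeCA. Col3a1 was the largest part of the fibroblast sum. Of the 6 fibroblast markers, 5 had a negative log2 fold change and Col1a1 had 0.10. Of 3 Notch target genes, Hey1 had a log2 fold change of 1.10 (limma adjusted p = 0.041), Nrarp 1.05 (0.052) and Hes1 -0.16 (0.56). In bulk samples fewer cells of a type and less RNA per cell cannot be told apart, and this holds for every level below.

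Of the 32 tested members, 2 were higher and 2 were lower in NICeCA than in Ctrl with an adjusted p under 0.05 (limma on log2(RPKM + 1), two-sided, Benjamini-Hochberg adjustment over all tested genes). These 12.5% of the members stood beside 13.6% of all tested genes, of which 5.88% were called higher and 7.68% lower. Itga1 and Itgb7 rose, and Itga10 and Tln2 fell. The median log2 fold change of the tested members was -0.04, and that of all tested genes was -0.05. All 3 NICeCA libraries lay above all 3 Ctrl libraries for 4 tested members and below them for 2, and the other 26 members overlapped. Over all tested genes the groups did not overlap in 40.9%, with NICeCA above in 16.5% and below in 24.4%. The p-values measure the spread between 3 mice in each group. The methods speak of pairs of mice without saying which mice formed a pair. With a block for replicate number in the fit, 0 members were called higher and 0 lower.

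**Figure D1:**
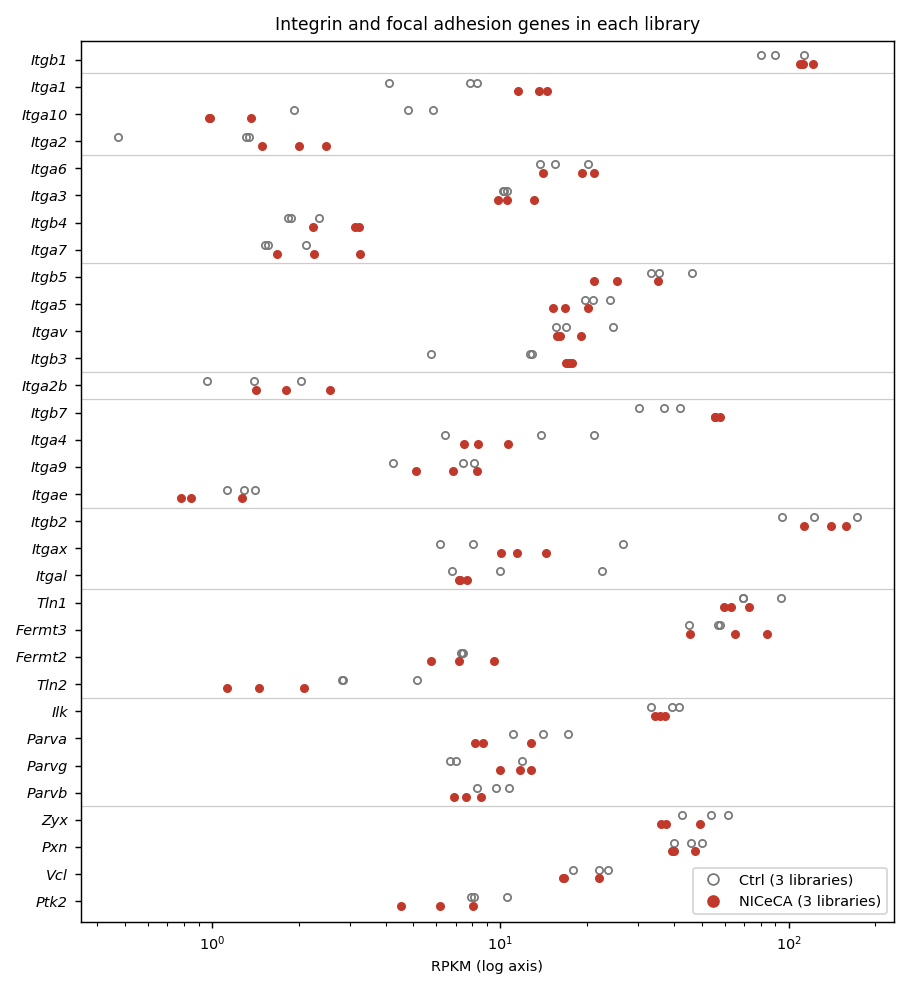
Level of each member in each library, in RPKM on a log axis, with open circles for the 3 Ctrl and filled circles for the 3 NICeCA libraries. Itgb2 and Itgb1 lie highest, between 80.1 and 173 RPKM, and the NICeCA circles of Itga10 and Tln2 lie to the left of all their Ctrl circles.

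Levels spanned a wide range over the members. Itgb2, the β chain shared by leukocyte integrins, ranged from 95.1 to 173 RPKM over the 6 libraries, and Itgb1, which pairs with most α chains of matrix receptors, ranged from 80.1 to 122 RPKM, so that these neighbours at the top of the order overlapped. Talin 1 (Tln1, 59.7 to 94 RPKM) and kindlin 3 (Fermt3, 45.1 to 84.4 RPKM) followed and overlapped each other, as did Zyx (36.3 to 61.6 RPKM), Itgb7 (30.2 to 57.7 RPKM) and Pxn (39.5 to 50.2 RPKM). Among the α chains the means over 6 libraries were highest for Itga5 (15.2 to 24.1 RPKM), Itgav (15.6 to 24.5 RPKM) and Itga6 (13.7 to 21.1 RPKM), and these overlapped.

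The 250 bases before the RefSeq start site are shown for 3 of the 4 called members, for which the reference held a promoter, and for Vcl, the member whose window holds both motifs marked here. Capitals mark the core TGGGAA that the Notch partner RBPJ binds and the CArG box bound by serum response factor, and all sequences are from GRCm38.p6, 5′ to 3′ on the strand of the gene.
Itga1, chr13:115101965-115102214, minus strand: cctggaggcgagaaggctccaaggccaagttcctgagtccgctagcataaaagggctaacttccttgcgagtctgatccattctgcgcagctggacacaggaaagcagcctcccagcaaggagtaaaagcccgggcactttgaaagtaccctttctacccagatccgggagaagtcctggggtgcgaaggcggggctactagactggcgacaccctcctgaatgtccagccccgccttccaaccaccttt
Itga10, chr3:96645334-96645583, plus strand: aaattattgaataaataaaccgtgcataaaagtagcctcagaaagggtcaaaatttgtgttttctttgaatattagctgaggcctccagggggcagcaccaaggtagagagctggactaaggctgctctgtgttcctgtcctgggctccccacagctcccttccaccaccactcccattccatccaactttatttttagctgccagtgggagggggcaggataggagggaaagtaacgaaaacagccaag
Itgb7, chr15:102231936-102232185, minus strand: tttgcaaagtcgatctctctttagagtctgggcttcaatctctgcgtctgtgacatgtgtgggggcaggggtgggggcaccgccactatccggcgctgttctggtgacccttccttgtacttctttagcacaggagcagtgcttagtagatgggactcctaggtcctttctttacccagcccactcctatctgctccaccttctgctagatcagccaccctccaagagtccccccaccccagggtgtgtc
Vcl, chr14:20929148-20929397, plus strand: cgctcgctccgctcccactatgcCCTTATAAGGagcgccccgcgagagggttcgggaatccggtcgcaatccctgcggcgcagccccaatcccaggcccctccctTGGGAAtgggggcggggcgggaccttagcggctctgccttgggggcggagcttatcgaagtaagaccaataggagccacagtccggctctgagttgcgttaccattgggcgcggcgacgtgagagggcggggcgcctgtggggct

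On both strands, TGGGAA was found in 3 of 25 member promoters (Fermt1, Itga2b and Vcl) and in 21% of 15952 promoters of the same length, or 20.3% of the 8725 promoters of tested genes. The CArG box was found in 2 of 25 (Fermt2 and Vcl) and in 1.3% of all promoters, or 1.11% of those of tested genes. The core GGGCGG, bound by SP1, was found in 10 of 25 and in 44.5% of all promoters, or 60.5% of those of tested genes. In Vcl the CArG box lay 227 to 218 bases and TGGGAA 145 to 140 bases before the start site. Neither TGGGAA nor the CArG box was among the letters of the Itga1, Itga10 and Itgb7 windows. Promoters more than 1000 bases from the start of their gene in the table were left out, a limit set after a first search, which left out Itga9. Without the limit the members with each motif numbered 3, 2 and 10 of 26.

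Of the 4 collagen receptor chains, Itga1 rose and Itga10 fell, Itga2 did not pass the test and Itga11 was not tested. Their summed level was 11 to 14.3 RPKM in Ctrl and 14.1 to 18.1 RPKM in NICeCA and overlapped. Itga1, the α chain of the collagen and laminin receptor α1β1, had 7.88, 4.12 and 8.30 RPKM in Ctrl replicates 1, 2 and 3 and 11.5, 13.7 and 14.5 RPKM in NICeCA replicates 1, 2 and 3. All 3 NICeCA libraries lay above all 3 Ctrl libraries. The mean rose from 6.77 ± 2.30 (SD, n = 3) to 13.2 ± 1.51 RPKM, a log2 fold change of 0.92 (SE 0.23, 95% confidence interval 0.38 to 1.45, limma adjusted p = 0.042). Itga1 lies at chr13:114958081-115101964 of GRCm38 and holds the gene Pelo on the same strand in its span. Pelo had a log2 fold change of 0.12 (limma adjusted p = 0.51).

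Itga10, the α chain of the collagen receptor α10β1 known from cartilage, had 4.79, 5.83 and 1.93 RPKM in Ctrl replicates 1, 2 and 3 and 0.978, 0.983 and 1.36 RPKM in NICeCA replicates 1, 2 and 3. The NICeCA libraries were the 3 lowest, and Ctrl replicate 3 lay closest to them. The mean fell from 4.19 ± 2.02 (SD, n = 3) to 1.11 ± 0.221 RPKM, with a log2 fold change of -1.22 (SE 0.30, 95% confidence interval -1.90 to -0.53, limma adjusted p = 0.040). The gene lies at chr3:96645584-96664519, and 175 to 1172 reads per library stood behind these values. The ratio of Itga1 to Itga10 RPKM was 0.707 to 4.30 in Ctrl and 10.6 to 13.9 in NICeCA. As Itga1 separated upward and Itga10 downward, these ranges could not overlap.

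Itga2, the α chain of the collagen receptor α2β1 of platelets, epithelium and endothelium, had 1.35, 0.470 and 1.31 RPKM in Ctrl and 1.49, 2.48 and 2.01 RPKM in NICeCA replicates 1, 2 and 3. The groups did not overlap, but the log2 fold change of 0.57 (SE 0.22) had a limma adjusted p of 0.11. Itga2 lies at chr13:114835912-114932041, next to Itga1. Itga11, a collagen receptor chain of fibroblasts, was under 1 RPKM and not tested, with 0.270, 0.565 and 0.317 RPKM in Ctrl and 0.0722, 0.166 and 0.256 RPKM in NICeCA. The Itga11 values of NICeCA were below those of Ctrl, as were the summed fibroblast markers given above, whose part in this difference was not tested.

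Itgb7, the β chain of the leukocyte pairs α4β7 and αEβ7, had 37.1, 30.2 and 41.9 RPKM in Ctrl and 57.7, 55.5 and 55.5 RPKM in NICeCA replicates 1, 2 and 3. The NICeCA libraries were all higher and lay close together. The mean rose from 36.4 ± 5.87 (SD, n = 3) to 56.2 ± 1.29 RPKM, a log2 fold change of 0.63 (SE 0.14, 95% confidence interval 0.29 to 0.96, limma adjusted p = 0.036). Itgb7 lies at chr15:102215995-102231935. The pan leukocyte gene Ptprc had 27.8 to 76.2 RPKM in Ctrl and 51.7 to 59.1 RPKM in NICeCA, and the summed macrophage markers, of which Lyz2 was the largest part, overlapped between the groups as well. Of the 9 macrophage markers, 6 had a negative and 3 a positive log2 fold change, with a median of -0.17. The 3 were Cd68 (log2 fold change 0.75, limma adjusted p = 0.022), Cd14 (0.97, 0.026) and Mrc1 (1.21, 0.10). The groups of each of these 3 markers and of the summed neutrophil markers did not overlap, with NICeCA above. The part of these cell types in the Itgb7 difference was not tested.

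The α partners of Itgb7 did not pass the test. Itga4, the α4 chain of leukocytes, had 13.9, 6.44 and 21.2 RPKM in Ctrl and 7.48, 10.7 and 8.34 RPKM in NICeCA (log2 fold change -0.47, limma adjusted p = 0.37). Itgae, the αE chain of intraepithelial T cells, had 0.781 to 1.41 RPKM in all libraries (log2 fold change -0.22, limma adjusted p = 0.34). Itga9, which pairs with β1 and binds tenascin and VCAM1, had a log2 fold change of 0.05 (limma adjusted p = 0.90). The ratio of Itgb7 to Itga4 RPKM was 1.98 to 4.69 in Ctrl and 5.20 to 7.72 in NICeCA, and these ranges did not overlap. Other ratios did overlap, namely Itgb1 to Itgb2, Fermt3 to Fermt2, Parvg to Parva, Itgb3 to Itga2b and Tln1 to Tln2. Those of Itgb3 to Itgb5 and Itgb3 to Itgav did not. Madcam1, the vessel ligand of α4β7, was at most 0.170 RPKM in any library.

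**Figure D2:**
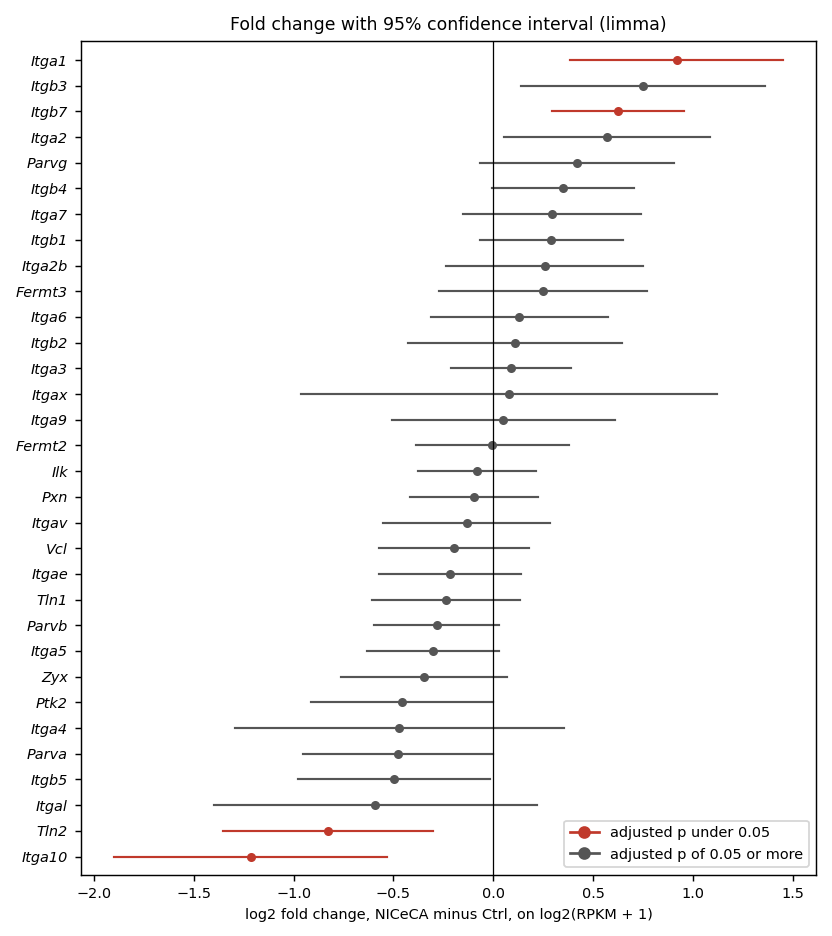
Log2 fold change of each tested member, NICeCA minus Ctrl on log2(RPKM + 1), with its 95% confidence interval from limma. The 4 members with an adjusted p under 0.05 are drawn in red, from -1.22 for Itga10 to 0.92 for Itga1.

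The RGD receptors include αvβ3, the pair bound by the RGD peptide on the nanoparticles of the study. Itgav had 15.6, 16.8 and 24.5 RPKM in Ctrl and 16.1, 15.7 and 19.1 RPKM in NICeCA replicates 1, 2 and 3. The groups overlapped, and the log2 fold change was -0.13 (SE 0.18, 95% confidence interval -0.55 to 0.28, limma adjusted p = 0.62). Itgb3, its β chain and that of platelet αIIbβ3, had 12.9, 5.77 and 12.7 RPKM in Ctrl and 16.9, 17.3 and 17.7 RPKM in NICeCA. All NICeCA libraries were above all Ctrl libraries, with Ctrl replicate 2 lowest. The log2 fold change of 0.75 (SE 0.26, 95% confidence interval 0.14 to 1.36) had a limma adjusted p of 0.089 and missed the threshold. The genes lie at chr2:83724397-83806917 and chr11:104608000-104670471.

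Itgb5, the other β chain that pairs with αv in endothelial cells, had 46.3, 35.5 and 33.3 RPKM in Ctrl and 35.1, 25.3 and 21.1 RPKM in NICeCA (log2 fold change -0.50, SE 0.21, 95% confidence interval -0.98 to -0.02, limma adjusted p = 0.13). The groups overlapped through NICeCA replicate 1. The ratio of Itgb3 to Itgb5 RPKM was 0.278, 0.163 and 0.380 in Ctrl and 0.481, 0.683 and 0.838 in NICeCA replicates 1, 2 and 3, without overlap. Itga5, the fibronectin receptor chain, had 19.8, 20.9 and 24.1 RPKM in Ctrl and 15.2, 16.7 and 20.2 RPKM in NICeCA (log2 fold change -0.30, SE 0.14, limma adjusted p = 0.17), with overlapping groups.

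Of the RGD receptors under 1 RPKM, Itga8, an α chain of smooth muscle and mesenchymal cells, had 0.230, 0.217 and 0.315 RPKM in Ctrl and 0.806, 0.975 and 1.11 RPKM in NICeCA. Itgb8, an αv partner that activates TGFβ, had 0.331, 0.300 and 0.323 RPKM in Ctrl and 0.177, 0.128 and 0.173 RPKM in NICeCA. The groups of Itga8 and Itgb8 did not overlap (two-sided exact permutation test, p = 0.1 for each gene, the smallest that 20 assignments allow). When every RefSeq gene was tested, the limma adjusted p was 0.055 for Itga8 and 0.063 for Itgb8. The summed mural markers were 24.8 to 40.3 RPKM in Ctrl and 50.3 to 96.3 RPKM in NICeCA, and their part in the Itga8 difference was not tested. Of the 5 mural markers tested, 4 had a positive log2 fold change and 1 (Rgs5) had a limma adjusted p under 0.05. The mural marker Pdgfrb had a log2 fold change of -0.03 (limma adjusted p = 0.95). Epithelial Itgb6 was at most 0.0277 RPKM.

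**Figure D3:**
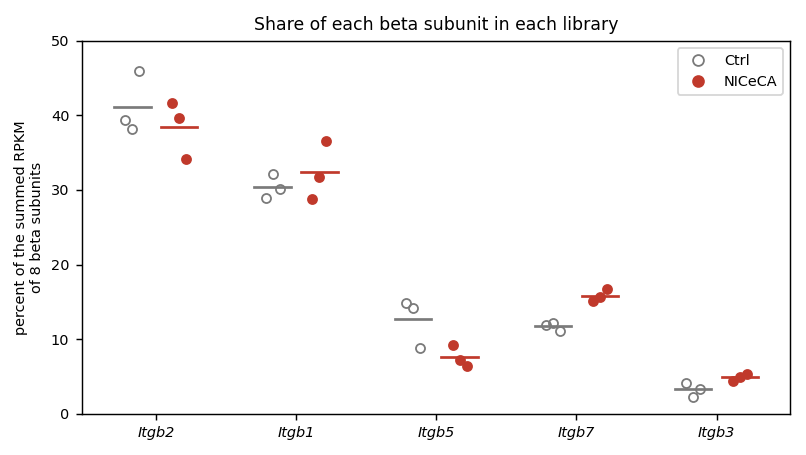
Share of 5 β chains in the summed RPKM of all 8 β chains, in percent, for each Ctrl (open) and NICeCA (filled) library, with a line at the mean of each group. Itgb7 took 11.1 to 12.1% in Ctrl and 15.2 to 16.7% in NICeCA, and Itgb3 took 2.31 to 4.15% and 4.44 to 5.31%, whereas Itgb1, Itgb2 and Itgb5 overlapped.

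As the plot of β chain shares shows, Itgb7 and Itgb3 took a larger part of the β chain total in every NICeCA library than in any Ctrl library. Itgb5 took 14.9, 14.2 and 8.83% in Ctrl and 9.22, 7.14 and 6.34% in NICeCA replicates 1, 2 and 3. The summed β chain level itself was 249 to 377 RPKM in Ctrl and 333 to 381 RPKM in NICeCA and overlapped.

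Itgb1 had 89.9, 80.1 and 114 RPKM in Ctrl and 109.8, 113 and 122 RPKM in NICeCA (log2 fold change 0.29, SE 0.16, 95% confidence interval -0.07 to 0.65, limma adjusted p = 0.22), and Ctrl replicate 3 lay within the NICeCA range. After quantile normalization its log2 fold change was -0.06. The 4 laminin receptor chains were all tested and none passed. Their log2 fold changes were 0.09 for Itga3, 0.13 for Itga6, 0.29 for Itga7 and 0.35 for Itgb4, with limma adjusted p-values of 0.65, 0.65, 0.30 and 0.14.

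Besides Itgb7 and Itgb3, described above, 4 integrin chains of blood cells were compared, and each overlapped between the groups. Itga2b, the αIIb chain of platelets and megakaryocytes, had 2.03, 0.957 and 1.40 RPKM in Ctrl and 2.58, 1.42 and 1.80 RPKM in NICeCA (log2 fold change 0.26, limma adjusted p = 0.42). The summed platelet markers were 115 to 197 RPKM in Ctrl and 1174 to 1306 RPKM in NICeCA, while the platelet genes Gp1ba and Gp6 were under 1 RPKM in every library. Most of this sum was Pf4 and Ppbp, with means of 130 and 11.9 RPKM in Ctrl and 1017 and 210 RPKM in NICeCA. Of the 8 platelet markers only 3 were tested. Pf4 and Ppbp had positive log2 fold changes (2.98 and 4.17), and Gp1bb had -0.26. Itgb2 had 122, 95.1 and 173 RPKM in Ctrl and 159, 141 and 113 RPKM in NICeCA (log2 fold change 0.11, SE 0.23, limma adjusted p = 0.76), and its value was -0.26 after quantile normalization.

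Itgal, the αL chain of LFA-1, had 9.97, 6.78 and 22.5 RPKM in Ctrl and 7.19, 7.27 and 7.64 RPKM in NICeCA (log2 fold change -0.59, SE 0.35, limma adjusted p = 0.26). Itgax, the CD11c chain of macrophages and dendritic cells, had 8.06, 6.18 and 26.8 RPKM in Ctrl and 14.4, 11.5 and 10.1 RPKM in NICeCA (log2 fold change 0.08, SE 0.45, limma adjusted p = 0.92). Ctrl replicate 3 was the highest library for Itgal, Itgax, Itga4 and Ptprc. Itgad, the remaining leukocyte α chain, was at most 0.278 RPKM. Itgam, the αM chain of neutrophils and macrophages that the rule leaves out, had a log2 fold change of 0.77 (limma adjusted p = 0.048), and its groups did not overlap.

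**Figure D4:**
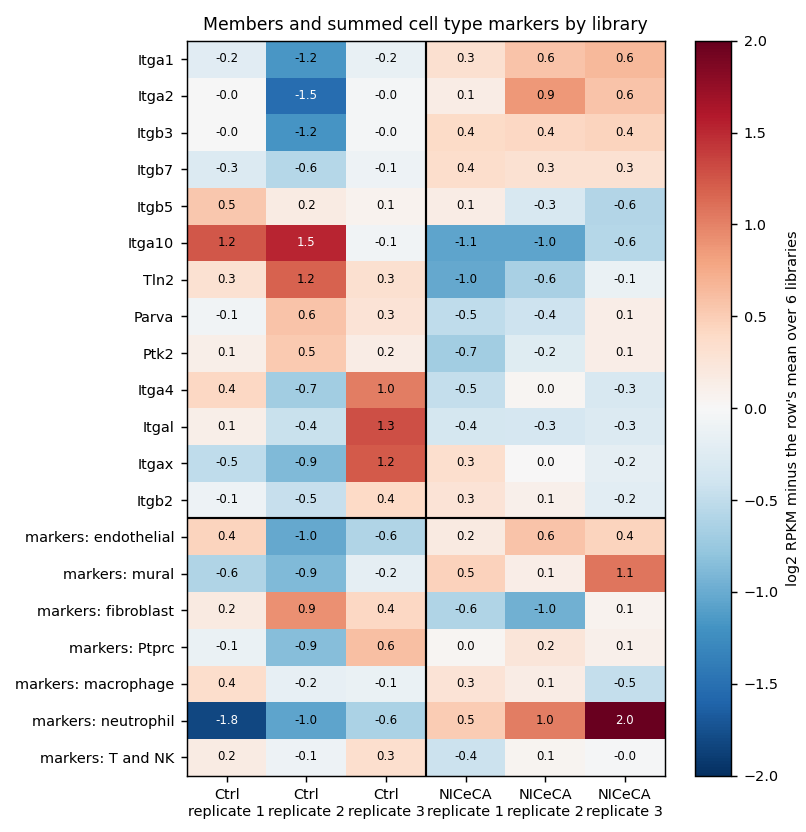
Level of members (upper rows) and summed cell type markers (lower rows) in each of the 6 libraries, as log2 RPKM minus the mean of the row. Itga1 and Itgb7 are above their means in all 3 NICeCA libraries, as are the endothelial, neutrophil and mural marker sums, and Ctrl replicate 2 is lowest for Itga1 and the endothelial sum and highest for Itga10, Tln2 and the fibroblast sum.

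Among the activators, Tln2, the talin of muscle and brain, had 2.82, 5.14 and 2.84 RPKM in Ctrl and 1.12, 1.45 and 2.09 RPKM in NICeCA replicates 1, 2 and 3. All NICeCA libraries were below all Ctrl libraries. The mean fell from 3.60 ± 1.33 (SD, n = 3) to 1.56 ± 0.491 RPKM, with a log2 fold change of -0.83 (SE 0.23, 95% confidence interval -1.35 to -0.30). Its limma adjusted p of 0.0499 lay just under the threshold. The gene lies at chr9:67217085-67559703. Tln1, the talin of most cells, had a log2 fold change of -0.24 (limma adjusted p = 0.32) at a level 13.5 to 64.7 times that of Tln2 in RPKM. Fermt2, the kindlin of adherent cells, had -0.01 (limma adjusted p = 0.99), and Fermt3, the kindlin of blood cells, had 0.25 (limma adjusted p = 0.46). Fermt1, the kindlin of epithelium, was at most 0.0323 RPKM.

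Of the 12 cytoplasmic proteins tested, 1 passed the test (Tln2), or 8.33% beside 13.6% of all genes. The log2 fold change was negative in 10 of the 12, beside 6811 of 12320 genes, and the median was -0.22, beside -0.05 over all genes. The plaque genes were all negative, at -0.46 for focal adhesion kinase (Ptk2, limma adjusted p = 0.14), -0.35 for Zyx (0.20), -0.20 for Vcl (0.41) and -0.10 for Pxn (0.64). Ptk2 had 7.89, 10.5 and 8.12 RPKM in Ctrl and 4.53, 6.19 and 8.04 RPKM in NICeCA, so that NICeCA replicate 3 reached the Ctrl range. In the complex of integrin linked kinase, Ilk had -0.08 (limma adjusted p = 0.67), Parvb -0.28 (0.18) and Parva, the parvin of most tissues, -0.48 (0.14). Parvg, the parvin of blood cells, had 0.42 (limma adjusted p = 0.19).

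The 4 calls were lost on leaving out most libraries in turn, while the folds kept their direction. The log2 fold change then ranged from 0.64 to 1.07 for Itga1, from 0.50 to 0.73 for Itgb7, from -1.58 to -0.97 for Itga10 and from -0.97 to -0.60 for Tln2. Calls over all genes dropped as well, to 17 higher and 1 lower without NICeCA replicate 2 and to 90 higher and 14 lower without NICeCA replicate 1. The limma adjusted p of Itga1 was 0.052, 0.055, 0.037, 0.12, 0.16 and 0.077 without Ctrl replicates 1, 2 and 3 and NICeCA replicates 1, 2 and 3 in turn, and that of Itgb7 was 0.056, 0.079, 0.026, 0.13, 0.14 and 0.058. In the same order it was 0.076, 0.089, 0.0061, 0.14, 0.15 and 0.053 for Itga10 and 0.059, 0.099, 0.055, 0.17, 0.17 and 0.048 for Tln2. Ctrl replicate 2 had the lowest endothelial marker sum (202 RPKM) and the lowest Itga1 and Itgb7, and it had the highest fibroblast marker sum (553 RPKM) and the highest Itga10 and Tln2. The part of these cell types in the 4 differences was not tested.

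**Figure D5:**
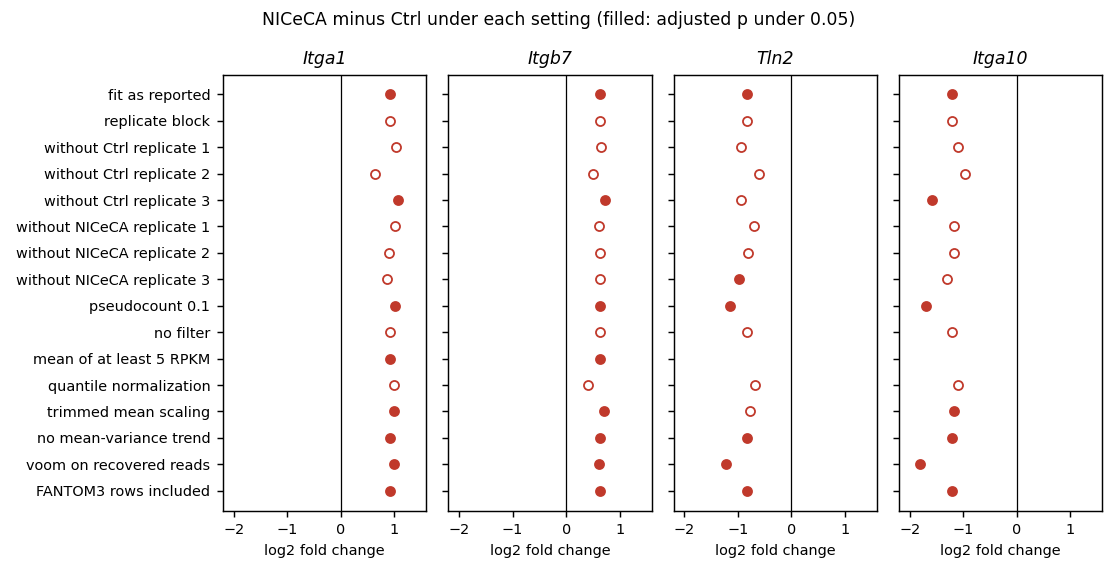
Log2 fold change of the 4 called members, NICeCA minus Ctrl, under each setting, filled where the limma adjusted p was under 0.05. Each gene keeps its direction throughout, from 0.64 to 1.07 for Itga1 and from -1.82 to -0.97 for Itga10, while open points mark the settings that lose the call.

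Other genes of the adhesion pathway were taken from a list of 50 accessory proteins, of which 49 were tested, 0 were called higher and 4 were called lower, or 8.16% beside 13.6% of all genes. At an unadjusted p under 0.05, 7 were higher and 11 lower, where 35.5% of all genes had such a p. Voom called 0 higher and 5 lower of these proteins, and 683 higher and 1337 lower of all 12320 genes. The 4 that fell were Kank2, a talin binding protein (log2 fold change -0.93, limma adjusted p = 0.036), the tensins Tenc1 (-0.97, 0.044) and Tns3 (-0.53, 0.040), which tie integrin tails to actin, and Dock1, an activator of Rac (-0.55, 0.032). Lpxn, a leukocyte relative of paxillin, had 22.1, 15.0 and 23.3 RPKM in Ctrl and 52.8, 40.3 and 27.0 RPKM in NICeCA (log2 fold change 0.93, limma adjusted p = 0.052). The lower calls numbered 2, 0, 4, 0, 0 and 2 without Ctrl replicates 1, 2 and 3 and NICeCA replicates 1, 2 and 3, and the higher calls 2, 0, 4, 0, 0 and 2.

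Of 22 integrin ligands outside the collagen and laminin families, 17 were tested, 4 rose and 1 fell, or 29.4% beside 13.6% of all genes. This list and that of the accessory proteins were chosen with earlier results of these data known. Their shares therefore test nothing about the lists. Thrombospondin 1 (Thbs1), a matrix protein of platelets and vessels, had 396, 232 and 626 RPKM in Ctrl and 1432, 1198 and 1762 RPKM in NICeCA (log2 fold change 1.90, limma adjusted p = 0.022). Osteopontin (Spp1), an RGD ligand of αvβ3, had 82.7, 143 and 186 RPKM in Ctrl and 601, 323 and 482 RPKM in NICeCA (1.79, 0.023). Every NICeCA library was above every Ctrl library for both. Von Willebrand factor (Vwf), stored by endothelium and platelets, and periostin (Postn), a matrix protein, rose by 1.15 and 1.14 on the log2 scale (limma adjusted p = 0.036 and 0.027), and Emilin1, an elastic fiber protein, had -0.73 (0.035). Fibronectin (Fn1) had -0.89 (limma adjusted p = 0.15), with 460.2 RPKM in Ctrl replicate 3. The ligands called higher numbered 5, 3, 5, 0, 0 and 3 without Ctrl replicates 1, 2 and 3 and NICeCA replicates 1, 2 and 3, and those called lower 0, 0, 1, 0, 0 and 0.

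Of the FANTOM3 transcripts in the table that overlap the span of a member, 30 had a mean of at least 1 RPKM. With these rows in the fit, 0 were called higher and 1 was called lower (limma, Benjamini-Hochberg adjustment). Of all 23670 rows in that fit, 1026 were called higher and 2185, or 9.23%, lower. The row called lower lies inside Itgb1 at chr8:128688541-128691037 and touches no exon of the gene. Its level was 1.75, 2.35 and 2.18 RPKM in Ctrl and 0.955, 1.16 and 1.18 RPKM in NICeCA replicates 1, 2 and 3, a log2 fold change of -0.56 with an adjusted p of 0.041. Itgb1 itself had a log2 fold change of 0.29, as given above.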

How the data were processed

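Bulk RNA-seq was done on rRNA-depleted RNA of TECs from 3 Ctrl and 3 NICeCA mice. The authors deposited RPKM values for 56826 rows, RefSeq genes and FANTOM3 transcripts, and the submitters' processing notes name TopHat2 and mm9. Row positions match GRCm38 instead: 99.3% of 21665 RefSeq rows with a known symbol overlapped their gene in that build. How rows were counted, and whether by strand, was not given in the sources used here. Reads shared by overlapping genes therefore stay unresolved (Pelo in Itga1, and genes on the other strand of Fermt3, Ilk, Itga4, Itga7, Itga8, Itgad, Itgae and Itgb4).

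From the deposited RPKM, log2(RPKM + 1) of RefSeq rows with a mean of at least 1 RPKM was fitted in R 4.3.3 by limma 3.58.1 (two-sided, moderated variances with a trend on the mean level), with Benjamini-Hochberg adjustment over 12320 rows and a threshold of 0.05. Fold changes on this scale understate those of low genes. RPKM times length gave whole reads within 0.05 for 100.0% of values under 1000 reads, so that depth is known, and voom on these reads was an alternative. The fit was tested on simulated data. Named are all members by role, with values per library for the called members, the 4 largest log2 fold changes each way, Itgav, Itgb3, Itgb1, Itga5 and the platelet and leukocyte integrins. Other genes were chosen after their values were seen. The members and lists were chosen with earlier results of these data known. For these libraries the study's methods point to the OmicShare tools and state no test. Promoters are from RefSeq (GRCm38.p6), and the 3 motifs were chosen after the fold changes were known.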

Additional observations from a re-analysis of the deposited data

How the results depend on the processing

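Under the replicate block, members called higher numbered 0 (in place of 2), members lower 0 (of 2), accessory genes lower 0 (of 4), ligands lower 0 (of 1), all genes higher 327 (of 725) and all genes lower 209 (of 946). Same-numbered libraries had correlations of 0.12, -0.34 and -0.18 in their deviations from the group means. With 3 libraries in each group, these correlations cannot decide whether same-numbered mice formed pairs. The methods speak of pairs of mice without saying which mice formed a pair. Not every library correlated best with its own number. With no filter on low values, the counts were 0 members higher, 0 members lower, 0 accessory genes lower, 0 ligands higher, 0 ligands lower, 42 genes higher and 9 lower. With a mean of at least 5 RPKM, which Itga10 and Tln2 do not reach, 0 members and 579 genes were lower and 1 accessory gene was higher. Quantile normalization gave 0 members higher, 1 lower, 1 accessory gene lower, 446 genes higher, 325 lower and a member median of -0.15. The lower member was Tln1 (limma adjusted p = 0.048), while Itga10 and Tln2 lost the call under this setting. Trimmed mean scaling gave 1 member lower and 2 accessory genes higher, and moved the median of all genes to 0.02. With FANTOM3 rows included, 1 accessory gene was higher and 2185 rows were lower. Apart from the rows each filter adds or removes, the cause was not tested.

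Leaving out each library in turn gave 0 to 3 members higher, 0 to 1 lower, a member median of -0.17 to 0.028, 0 to 4 accessory genes higher, 0 to 4 lower, 0 to 5 ligands higher, 0 to 1 lower, 17 to 911 genes higher and 1 to 832 lower. The higher share of all calls was 43.4%, and 61.0% under the block, 57.8% after quantile normalization, 60.3% after trimmed mean scaling and 33.8% with voom.

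Of 473 values of single members under the alternatives, 423 kept direction and side of the threshold, 33 lost the call, 2 gained it and 15 reversed, none of them called. Leaving out each library in turn gave -0.30 to 0.67 for Itgax, -0.20 to 0.22 for Itga9, -0.095 to 0.34 for Itgb2, -0.25 to 0.056 for Itgav, -0.021 to 0.17 for Itga3 and -0.17 to 0.15 for Fermt2. Fermt2 had 0.10 after quantile normalization and 0.062 after trimmed mean scaling. Quantile normalization gave -0.26 for Itgb2, -0.025 for Fermt3 and -0.064 for Itgb1. Leaving out the distance limit on promoters, added after seeing the data, left the member counts of each motif as they were. Tested members with the fewest reads in a library were Itga2 (79), Itgae (126), Itga2b (131) and Itga10 (175).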

Other observations

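Among the FANTOM3 transcripts within member spans, 26 lay on the strand of the member and touched none of its exons. Of these, 9 were lower in every NICeCA library than in any Ctrl library and 0 were higher. Over all 33353 FANTOM3 rows, on either strand and whether or not they touched an exon, 23.2% were lower without overlap and 6.28% higher. Of those under 1 RPKM, 18% were lower and 5.43% higher. The 9 rows included 3 of 4 in Parva and 4 of 5 in Ptk2, and rows within the same gene are not independent of each other. Only 5 of the 26 had a mean of at least 1 RPKM.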
